A study of Mus musculus with 48 samples.

Results

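Growth hormone signaling through STAT5 was followed in mouse skeletal muscle with 5 genes, which are *Ghr*, *Stat5a*, *Stat5b*, *Cish*, and *Socs2*. They were chosen by gene name from the 56748 genes of the deposited expression table, and all 5 were found and passed the filter on low counts that left 15637 genes for testing. RNA came from the tibialis anterior muscle of male mice aged 39 to 55 weeks, in 48 libraries of 1 mouse each. WT and FoxP1SkmKO mice were studied as controls, with sterile PBS injected into the pancreas, or as KPC mice, with an orthotopic injection of KPC FC1245 cells, a line grown from the pancreatic tumor of a genetically engineered mouse. FoxP1SkmKO mice carry homozygous floxed *Foxp1* alleles and a Cre transgene driven by the ACTA1 promoter, whose activity lies in muscle fibers, so other cells of the muscle keep the gene. The label of the WT mice is C57BL/6J, but the record of the series speaks of mice with floxed alleles and no Cre. All mice were kept in constant darkness, and 2 mice of each genotype and condition were taken at each of 6 circadian times (CT), every 4 h from CT18 to CT38, which gives 24 groups.

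Growth hormone binds its receptor, the product of *Ghr*, on the cell surface and activates the kinase JAK2. JAK2 phosphorylates the paralogous transcription factors STAT5A and STAT5B, which then enter the nucleus and bind palindromic elements called GAS motifs. *Cish* and *Socs2* are textbook targets of STAT5, and their products dampen signaling from the receptor, while *Igf1* carries part of the growth signal. In male rodents growth hormone is released in pulses, and in muscle the pathway is known for its part in postnatal growth. Neither growth hormone nor STAT5 phosphorylation was measured here, so the values below are transcript levels only.

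Sequence around the transcription start was taken from RefSeq for 4 of the 5 genes, in 7 windows of 300 bases that were placed on GRCm39 by exact match. *Socs2* had no entry. The stretch shown for *Cish* holds the only GAS motifs (TTCNNNGAA, in capitals) found in these 7 windows, in the first exon and 5′ UTR, at chr9:107173848-107173877 on the plus strand.
Cish: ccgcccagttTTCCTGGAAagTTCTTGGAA
The motifs begin at positions 1 and 12 counted from the annotated start and do not overlap. Of 32851 mouse windows of the same length, 8.30% held at least 1 match and 0.457% held 2 or more. The stretches shown for *Stat5a* and *Stat5b* hold the letters AGGTCA on the opposite strand, printed here as TGACCT in capitals, the core of the elements bound by the clock receptors ROR and REV-ERB. They lie at chr11:100751258-100751287 on the plus strand for *Stat5a*, in a 5′ UTR exon that also overlaps the antisense gene *Gm72578*, and at chr11:100713410-100713439 on the minus strand for *Stat5b*, partly in a 5′ UTR exon.
Stat5a: gaggcagcTGACCTttgaggaggaaatcgc
Stat5b: gaagcagcTGACCTtttagaaggaaatcgc
The paralogs share 27 of these 30 bases (90.0%). These letters were found in 16.3% of all windows, and a further match lay in the other *Stat5a* window. The stretch shown for *Stat5b* lies inside the gene. The other *Stat5b* window, at chr11:100741358-100741657, spans the 5′ end of the gene and held no match. None of the 7 windows held the E-box CACGTG (7.15% of all windows), the D-box TTATGTAA (0.938%), or the forkhead motif GTAAACA (3.65%) on either strand. A match describes the letters in a window and is not evidence that a factor binds there, nor is a missing match evidence that none binds. From FOXP1 ChIP-seq in the gastrocnemius-plantaris muscles, the study names *Stat5a* and *Stat5b* among direct FOXP1 targets.

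Levels are given as FPKM, which divides reads by gene length and library size. A comparison between genes depends on the deposited lengths. These were 5539 bases for *Stat5b*, 9053 for *Ghr*, 6419 for *Cish*, 7133 for *Stat5a*, and 9531 for *Socs2*. Whether they match the transcripts made in this muscle was not tested. *Stat5b* had the highest FPKM of the 5 genes, with a mean of 58.3 FPKM over the 48 mice and a range of 44.3 to 70.6. *Ghr* followed with 17.7 FPKM and a range of 13.3 to 21.4. These ranges overlapped neither each other nor those of the remaining genes. The other three were low and overlapped, at a mean of 3.26 FPKM for *Cish* (0.620 to 12.2), 2.21 FPKM for *Stat5a* (1.54 to 3.13), and 1.89 FPKM for *Socs2* (1.04 to 3.46). *Stat5b* exceeded its paralog in every mouse, by a ratio of 27.0 ± 4.51 (SD, n = 48) with a range of 17.3 to 37.7. *Cish* spanned a 19.7-fold range between mice, against 3.34-fold for *Socs2*, 2.03-fold for *Stat5a*, 1.62-fold for *Ghr*, and 1.59-fold for *Stat5b*.

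In mm39 the STAT5 paralogs are neighbors on chromosome 11. *Stat5b* (ENSMUSG00000020919) spans 100671557 to 100741550 on the minus strand and *Stat5a* (ENSMUSG00000004043) spans 100750177 to 100775995 on the plus strand. *Ghr* (ENSMUSG00000055737) lies on chromosome 15 at 3347242 to 3612974, *Cish* (ENSMUSG00000032578) on chromosome 9 at 107173225 to 107179983, and *Socs2* (ENSMUSG00000020027) on chromosome 10 at 95221224 to 95253042. The near-identical coding stretches of *Stat5a* and *Stat5b* may share reads, which makes the lower of them the less certain. *Stat5a* overlaps *Stat3* and *Cish* overlaps *Gm17040* (0.264 FPKM) on the opposite strand, and the use of strand in counting is not given in the sources used here.

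The libraries held between 14480867 and 20787784 counts (median 16602092), so that the least covered value of a member, 67 reads for *Cish*, carries a counting error far below its spread between mice. *Foxp1*, the deleted gene, had 0.630 ± 0.140 FPKM (SD, n = 12) in WT control, 0.578 ± 0.0682 in FoxP1SkmKO control, 0.629 ± 0.102 in WT KPC, and 0.544 ± 0.0744 in FoxP1SkmKO KPC mice. The log2 difference between genotypes was -0.11 ± 0.07 (SE, edgeR adjusted p = 0.459) in control and -0.20 ± 0.07 (adjusted p = 0.246) in KPC mice. These counts cover the whole gene and all cells of the muscle, and the genotype stands as the labels give it. Muscle fiber markers dominated every library, with a summed level of 39138 to 53078 FPKM for 7 genes. Summed markers of other cells reached 330 FPKM for erythroid cells, 166 for liver, 85.8 for endothelium, 80.4 for fibroblasts, 26.0 for macrophages, 16.7 for neutrophils, 9.59 for adipocytes, 1.24 for T cells, and 0.903 for pancreas and epithelium. Their medians over the 48 libraries were 183, 0.188, 64.3, 38.8, 9.74, 0.672, 2.67, 0.377, and 0.226 FPKM, in the same order. The highest liver and neutrophil levels thus lay far above the level of most libraries. At an edgeR adjusted p under 0.05, *S100a8* and *S100a9* of 3 tested neutrophil markers rose with tumors in WT mice. *Kdr* of 5 endothelial markers and *Col1a1* and *Col3a1* of 5 fibroblast markers fell. *Lum* fell in FoxP1SkmKO mice, and *Tnnt3* of 7 fiber markers was lower in FoxP1SkmKO than in WT control mice. Of all genes tested, 1.79% passed this threshold for the tumor in WT mice and 0.428% in FoxP1SkmKO mice. For the genotype in control mice 3.44% passed it. All 3 neutrophil and all 5 fibroblast markers had an unadjusted p under 0.05 for the tumor in both genotypes. Of all genes 15.2% had such a p in WT and 12.4% in FoxP1SkmKO mice. The tumor effect differed between genotypes at an adjusted p under 0.05 for 0 of all 15637 genes tested, and so for 0 genes of these lists. Fibroblast markers had a lower summed level in KPC mice, with a median of 30.6 against 50.4 FPKM in WT and 26.3 against 46.1 FPKM in FoxP1SkmKO mice, and their part in the results below was not tested. WT control CT26 replicate 1 and FoxP1SkmKO control CT38 replicate 2 had the lowest median correlation with the other libraries (0.980 and 0.985). The shared rhythm and the correlation of *Cish* with *Socs2* were also fitted without either of them. For the tumor effect in WT mice at CT26 the former was left out. The differences in rhythm and the correlations of the other pairs are not given without these libraries.

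The main question of the design is whether a pancreatic tumor changes muscle transcription and whether this depends on FoxP1. None of the 5 genes passed the test for a tumor effect or a genotype effect averaged over the 6 times. Tests were made with the quasi-likelihood F test of edgeR, and a gene was called at a Benjamini-Hochberg adjusted p under 0.05 over all genes tested. For the tumor effect it called 280 genes in WT mice (1.79% of those tested) and 67 in FoxP1SkmKO mice (0.428%). The genotype effect was called for 538 genes in control mice (3.44%) and 50 in KPC mice (0.32%). The difference of the tumor effect between genotypes was called for 0 genes (0.0%), with 1020 at an unadjusted p under 0.05. In whole muscle, fewer cells of a type and less RNA per cell cannot be told apart. DESeq2 on all libraries also called none of the 5 genes in any of these contrasts. At an unadjusted p under 0.05, each tool had 1 of 5 in the tumor effect in WT mice, 1 in FoxP1SkmKO mice, 0 in the difference, 0 in the genotype effect in control mice, and 1 in KPC mice. By edgeR 15.2%, 12.4%, 6.52%, 17.2%, and 10.8% of all genes had such a p in these contrasts, in the same order.

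*Stat5b*, the main STAT5 transcript of the muscle, had the unadjusted p under 0.05 for the tumor. In WT mice its lowest, median, and highest levels were 44.3, 55.1, and 70.6 FPKM in controls and 50.1, 59.6, and 70.02 FPKM with KPC tumors. FoxP1SkmKO mice had 46.5, 56.9, and 64.4 FPKM as controls and 50.8, 59.8, and 69.1 FPKM with tumors. The groups overlapped over most of their range in both genotypes. The KPC mice had 1.063-fold the control level in WT (95% interval 1.006 to 1.125, adjusted p = 0.272 by edgeR) and 1.059-fold in FoxP1SkmKO mice (1.001 to 1.120, adjusted p = 0.387).

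*Ghr* had its only unadjusted p under 0.05 between genotypes, in mice with tumors. Its lowest, median, and highest levels were 14.04, 18.4, and 21.4 FPKM in WT control and 13.3, 16.8, and 20.6 FPKM in FoxP1SkmKO control mice. With tumors they were 16.0, 18.3, and 21.4 FPKM in WT and 14.5, 17.0, and 19.4 FPKM in FoxP1SkmKO mice. The receptor transcript was 0.922-fold in FoxP1SkmKO relative to WT mice with tumors (0.867 to 0.981, edgeR adjusted p = 0.279) and 0.945-fold in controls (0.888 to 1.005, adjusted p = 0.334). Neither passed the test over all genes, and the groups overlapped in both conditions.

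*Cish*, the feedback inhibitor, had the widest intervals. Its lowest, median, and highest levels were 0.620, 2.98, and 6.91 FPKM in WT control, 0.910, 3.60, and 7.02 in WT KPC, 0.778, 2.21, and 6.98 in FoxP1SkmKO control, and 0.891, 2.88, and 12.2 in FoxP1SkmKO KPC mice. The 4 groups covered nearly the same range. The tumor effect was 1.301-fold in WT (0.813 to 2.08, edgeR adjusted p = 0.639) and 1.18-fold in FoxP1SkmKO mice (0.725 to 1.93, adjusted p = 0.849). In FoxP1SkmKO mice the direction rested on 1 mouse, since the log2 difference was 0.24 with all mice and -0.18 without FoxP1SkmKO KPC CT22 replicate 2. A fit without the filter on low counts, in which the estimated prior degrees of freedom were infinite and each gene takes its spread from the trend over all genes, gave the same log2 differences with far smaller errors and called *Cish* in 4 of the 5 contrasts, for example at an adjusted p of 2.6e-08 for the tumor effect in WT mice, where the other tools and scalings gave 0.637 to 0.724.

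*Stat5a* and *Socs2* gave small differences in all 5 contrasts. The 95% interval of the tumor effect in WT mice was 0.927- to 1.15-fold for *Stat5a* and 0.830- to 1.19-fold for *Socs2*. In FoxP1SkmKO mice it was 0.869- to 1.08-fold for *Stat5a* and 0.785- to 1.13-fold for *Socs2*. The log2 difference of the tumor effect between genotypes was -0.14 ± 0.48 (SE) for *Cish* and -0.09 ± 0.11 for *Stat5a*, and closer to 0 for the other three genes.

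**Figure D1:**
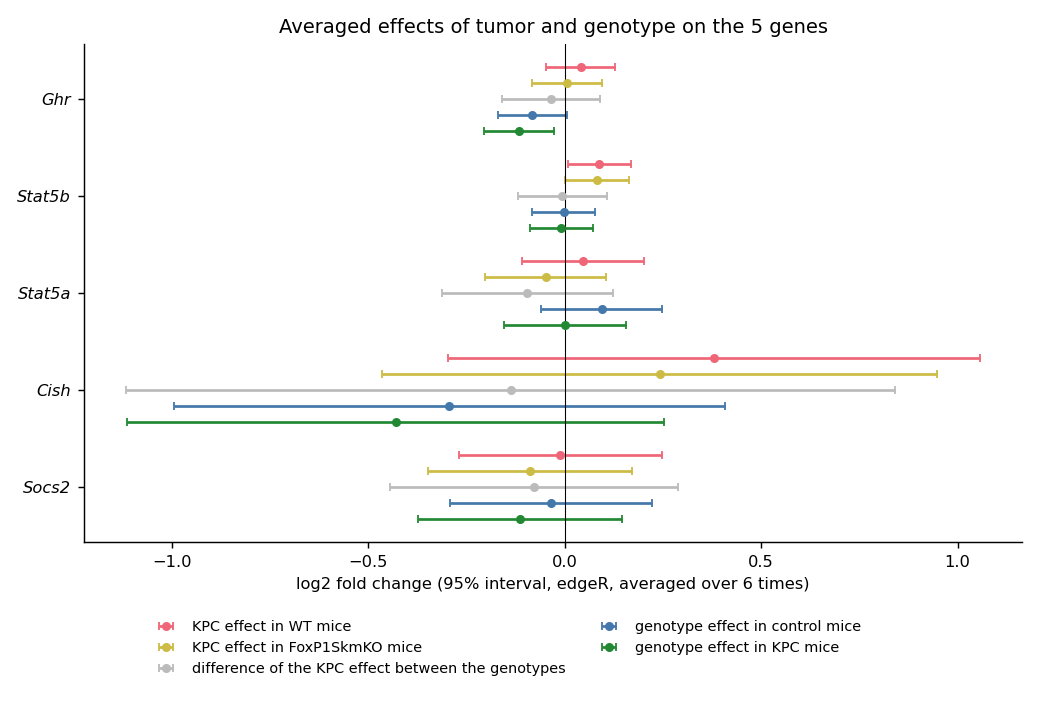
Log2 fold changes of the 5 genes for the tumor effect in each genotype, its difference between genotypes, and the genotype effect in each condition, averaged over the 6 circadian times, with 95% intervals of the edgeR fit on 48 libraries. The intervals of *Stat5b* and *Ghr* are narrow and close to 0, that of *Cish* is wide (0.813- to 2.08-fold for the tumor effect in WT mice), and no point passed an adjusted p of 0.05.

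At single circadian times there were 60 tests of the 5 genes for the tumor effect, and none passed the adjusted threshold. In WT mice the share of all genes called was 0.0% at CT18, CT22, and CT34, 7.17% at CT26, 0.0064% at CT30, and 0.0256% at CT38. In FoxP1SkmKO mice it was 0.0192% at CT18, 0.0384% at CT26, 0.0064% at CT38, and 0.0% at the other times. Unadjusted p-values under 0.05 were found in 5 of the 60 tests by edgeR and in 5 by DESeq2 on all libraries. Over all genes edgeR gave such a p in 8.49% of tests at single times, and in 21.4% in WT mice at CT26, where 2 of the 5 lay. At CT26 in WT mice, *Ghr* was 14.3 and 14.04 FPKM in controls and 16.0 and 17.4 FPKM with tumors, and *Stat5b* was 55.0 and 57.6 FPKM in controls and 60.2 and 70.02 FPKM with tumors. All KPC values exceeded the control values for both genes, and the library that stood apart is one of these controls. The log2 difference was 0.23 ± 0.11 for *Ghr* (edgeR adjusted p = 0.201) and 0.21 ± 0.10 for *Stat5b* (0.211). Without that library it was 0.23 ± 0.13 (adjusted p = 0.527) and 0.16 ± 0.12 (0.652), with the lone control assumed to vary like the other groups, and 89 genes were called in place of 1121. *Socs2* was lower with tumors in WT mice at CT22, with 1.11 and 1.32 against 2.45 and 1.51 FPKM, and in FoxP1SkmKO mice at CT30, with 1.25 and 1.51 against 1.68 and 3.46 FPKM. The latter had the lowest unadjusted p of the 60 tests, 0.00815 in edgeR's fit over all genes (log2 difference -0.88 ± 0.31, adjusted p = 0.378). *Cish* in FoxP1SkmKO mice at CT22 was 1.17 and 12.2 FPKM with tumors and 2.30 and 0.778 FPKM in controls, so that 1 of the KPC mice lay within the controls. The difference of the tumor effect between genotypes was called at no time for any of the 5 genes, against 0.0064% of all genes at CT22 and CT34, 0.345% at CT26, and 0.0% at the other times.

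*Cish* in WT mice at CT38 was the test whose call differed between edgeR on all 48 libraries and edgeR on 4. It was 6.97 and 6.73 FPKM with tumors and 3.47 and 2.30 FPKM in controls, a log2 difference of 1.24. In the fit on all 48 libraries the SE was 0.80 and the adjusted p was 0.637. With edgeR on these 4 libraries alone the SE was 0.16 and the adjusted p was 0.00175. DESeq2 on all libraries gave an adjusted p of 0.681, limma gave 0.666 and 0.694, and the fit without a filter gave 1.1e-15.

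Time of day gave calls among the 5 genes where tumor and genotype gave none. A 24 h sinusoid shared by the 4 groups of genotype and condition was called by edgeR for 4 of the 5 genes, against 5455 of all 15637 genes (34.9%). By their levels over time, the receptor and the transcription factors each had a narrow daily range and their own peak.

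*Stat5a* peaked first, at CT24.4, near the end of the active phase of a nocturnal animal. Its mean was highest at CT26, with 2.57 ± 0.308 FPKM (SD, n = 8) and a range of 2.18 to 3.13. It was lowest at CT38, with 1.82 ± 0.386 FPKM and a range of 1.54 to 2.68. These 2 times did not overlap apart from FoxP1SkmKO control CT38 replicate 2, the mouse with 2.68 FPKM. The fitted amplitude was 0.23 on the log2 scale, a 1.38-fold change from trough to peak (adjusted p = 3.2e-05).

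*Stat5b* peaked later, at CT27.8. Its mean was highest at CT30, with 65.5 ± 3.47 FPKM (SD, n = 8) and a range of 60.5 to 70.6, and lowest at CT38, with 51.5 ± 5.13 FPKM and a range of 44.3 to 61.2. Only 1 mouse at CT38, FoxP1SkmKO KPC replicate 1 with 61.2 FPKM, lay above the lowest value at CT30. Of the 5 genes it had the lowest adjusted p (2.7e-07), with an amplitude of 0.16 on the log2 scale and a 1.24-fold change from trough to peak.

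*Ghr* peaked at CT33.6, in the second part of the rest phase. Its mean was highest at CT34, with 20.1 ± 1.26 FPKM (SD, n = 8) and a range of 18.6 to 21.4, and lowest at CT26, with 15.8 ± 1.51 FPKM and a range of 14.04 to 18.3. These times did not overlap. The amplitude was 0.16 on the log2 scale, a 1.24-fold change (adjusted p = 7.5e-06). At CT34 the WT mice had 21.4 and 20.8 FPKM as controls and 21.4 and 21.4 with tumors, whereas the FoxP1SkmKO mice had 18.9 and 18.6 FPKM as controls and 19.4 and 18.8 with tumors. The genotypes did not overlap at that time, which was picked after the values were seen and was not tested.

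*Socs2* peaked last, at CT36.0, with an amplitude of 0.24 on the log2 scale, a 1.39-fold change, and an adjusted p of 0.0228. Its mean was 2.23 ± 0.410 FPKM (SD, n = 8) at CT34 and 1.52 ± 0.252 FPKM at CT26, and the mice of these times overlapped. This call depended on single groups of mice. It was lost without both WT control mice at CT26 (adjusted p = 0.0566), without all WT control mice (0.0648), and without all WT KPC mice (0.203). *Stat5a*, *Stat5b*, and *Ghr* were called in each of these fits, and also without either of the libraries that stood apart. *Cish* was not called (amplitude 0.13, adjusted p = 0.824), and its means over the 6 times ran from 2.65 ± 2.02 to 3.98 ± 1.18 FPKM with overlap at every time.

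**Figure D2:**
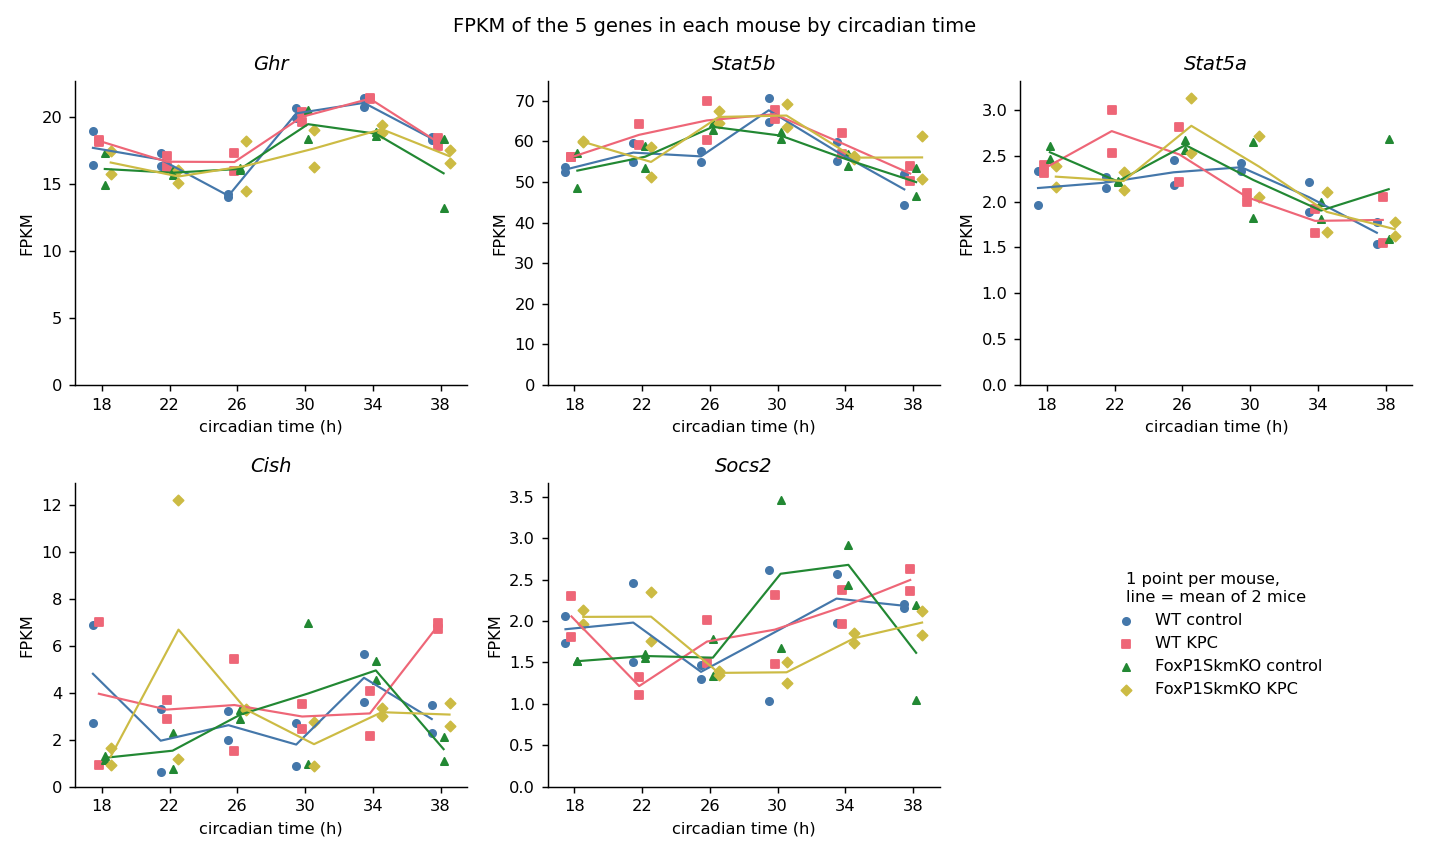
FPKM of each gene in each of the 48 mice against circadian time in hours, by genotype and condition, 2 mice for each group and time. For each of *Stat5b* and *Ghr* the 4 groups follow a similar course, with *Ghr* at 14.04 to 18.3 FPKM at CT26 and 18.6 to 21.4 FPKM at CT34, while *Cish* scatters from 0.620 to 12.2 FPKM with no common course.

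**Figure D3:**
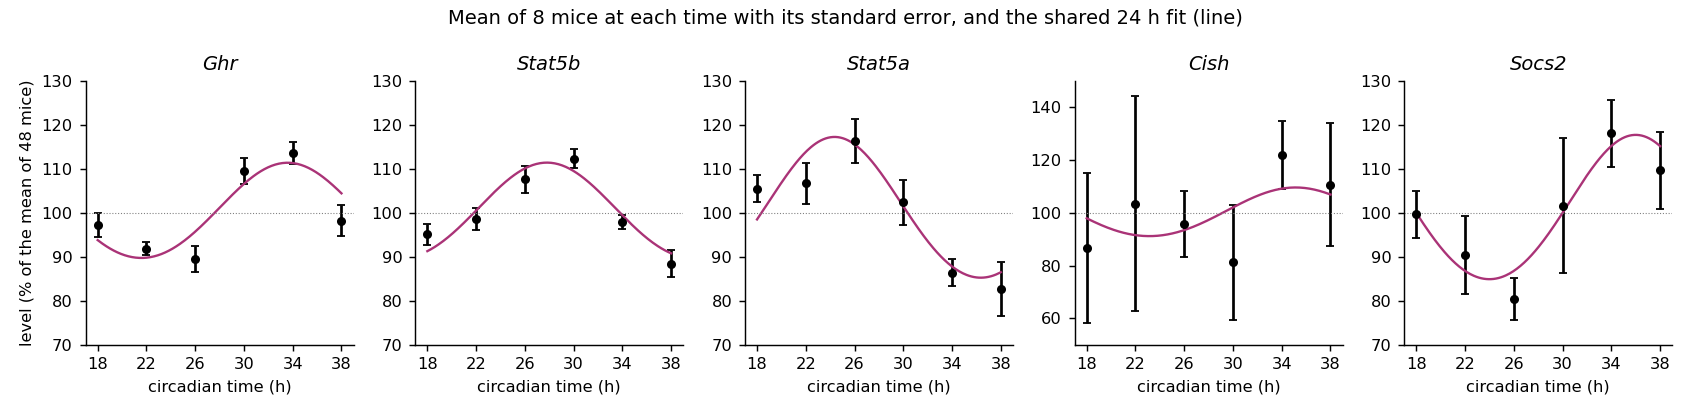
Level of each gene at each circadian time in hours, as a percentage of its mean FPKM over the 48 mice. Points are means of 8 mice with standard errors, and lines are the 24 h sinusoids fitted by edgeR to the counts. The peaks follow each other from *Stat5a* (CT24.4) over *Stat5b* (CT27.8) and *Ghr* (CT33.6) to *Socs2* (CT36.0), and *Cish*, drawn on a wider axis, shows no called rhythm.

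The study tested rhythm within each genotype and condition with a likelihood-based package, and a similar test was run here, an F test of a 24 h sinusoid on the FPKM of 12 mice with an unadjusted p under 0.01. It called *Stat5a*, *Stat5b*, and *Ghr* in WT KPC mice, with p-values of 0.00152, 0.00239, and 0.00278 (n = 12). *Stat5b* was also called in FoxP1SkmKO control mice, at 0.00271, and *Socs2* in FoxP1SkmKO KPC mice, at 0.00663. In WT control mice it called none of the 5 genes, with p-values of 0.0231 for *Stat5a*, 0.0281 for *Stat5b*, and 0.0149 for *Ghr*. The share of all genes called was 4.92% in WT control, 4.22% in WT KPC, 4.07% in FoxP1SkmKO control, and 2.63% in FoxP1SkmKO KPC mice. None of the 20 tests of the 5 genes had an adjusted p under 0.05, which 0.551%, 0.475%, 0.414%, and 0.116% of all genes had in these groups, in the same order. The fitted peak of *Stat5b* lay between CT27.4 and CT28.7 in the 4 groups, that of *Ghr* between CT31.6 and CT34.7, that of *Stat5a* between CT22.8 and CT26.3, and that of *Socs2* between CT32.2 and CT41.0. The order of the fitted peaks of *Stat5a*, *Stat5b*, and *Ghr* was the same in each group, but several of these peaks come from fits that were not called. The p of the F test was 0.348 for *Stat5a* in FoxP1SkmKO control and 0.127 for *Stat5b* in FoxP1SkmKO KPC mice. For *Ghr* it was 0.0765 in FoxP1SkmKO control and 0.0596 in FoxP1SkmKO KPC mice.

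A rhythm called in one group and not in another does not show that the groups differ, so the difference was tested itself, in 15 tests of the 5 genes. *Stat5a* differed between WT KPC and WT control mice at an unadjusted p of 0.0189, with an amplitude of 0.510 ± 0.0946 FPKM (SE) and a peak at CT22.9 with tumors, and an amplitude of 0.285 ± 0.0828 FPKM and a peak at CT26.3 in controls. *Socs2* differed between FoxP1SkmKO KPC and control mice at an unadjusted p of 0.00769, with an amplitude of 0.381 ± 0.0887 FPKM and a peak at CT41.0 with tumors, and 0.622 ± 0.241 FPKM and CT32.2 in controls. Neither passed adjustment over all genes (0.752 and 0.757), and the share of all genes with an unadjusted p under 0.05 was 5.07% and 5.09% in these comparisons. Between the control mice of the 2 genotypes, none of the 5 genes had an unadjusted p under 0.05 on FPKM, against 4.17% of all genes. On counts with edgeR, the unadjusted p for *Stat5a* between WT KPC and WT control mice was 0.0787. Between FoxP1SkmKO KPC and control mice it was 0.00118 for *Socs2* (adjusted p = 0.135) and 0.0338 for *Cish* (adjusted p = 0.494). Between control genotypes it was 0.0344 for *Socs2* and 0.0401 for *Cish* (adjusted p = 0.880 for both). On counts the share of all genes with an unadjusted p under 0.05 was 8.55%, 9.34%, and 5.17% in these comparisons.

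Mice of the same genotype, condition, and time differed far more in *Cish* than in the other genes. The SD between the 2 mice of a group, pooled over the 24 groups on the log2(FPKM + 1) scale, was 0.721 for *Cish*, which was at percentile 99.8 of 9004 protein-coding genes with a mean of at least 1 FPKM. *Socs2* was at percentile 95.4 with an SD of 0.231, *Stat5a* at 74.9 with 0.136, *Ghr* at 48.02 with 0.103, and *Stat5b* at 37.9 with 0.0948. The feedback inhibitors were thus the most variable of the 5 between like mice, and the receptor and the main STAT5 transcript the least. *Cish* differed at least 2-fold within 9 of the 24 groups, *Socs2* within 3, and the others within 0. The largest difference within a group was 10.5-fold for *Cish*, in FoxP1SkmKO KPC mice at CT22 with 12.2 and 1.17 FPKM. In *Socs2* it was 2.52-fold, in WT control mice at CT30 with 2.61 and 1.04 FPKM.

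**Figure D4:**
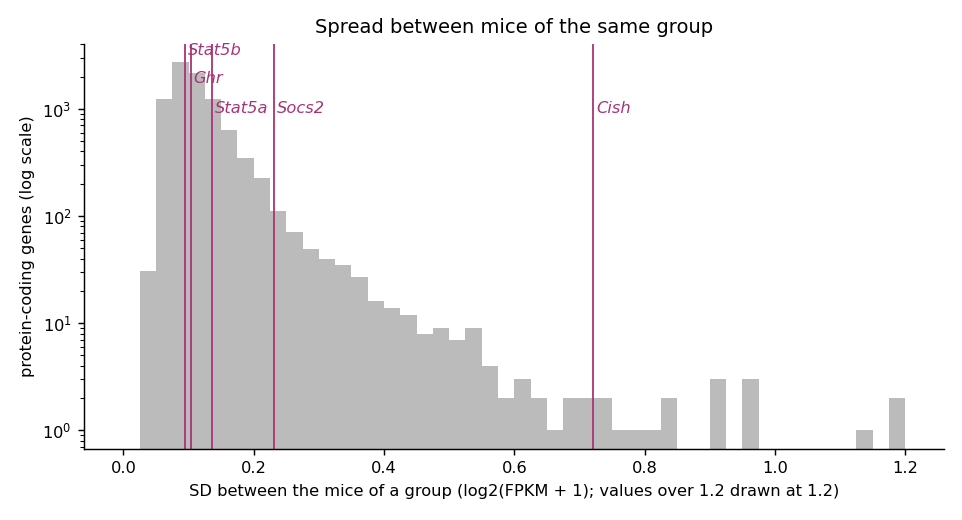
Histogram of the SD between the mice of a group, on the log2(FPKM + 1) scale, for 9004 protein-coding genes, with the number of genes on a log axis and a vertical line for each of the 5 genes. *Stat5b* (0.0948), *Ghr* (0.103), and *Stat5a* (0.136) lie in the bulk of the genes, *Socs2* (0.231) to its right, and *Cish* (0.721) in the far tail.

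*Cish* and *Socs2* moved together from mouse to mouse. Over the 48 mice Pearson's r was 0.590 (permutation p = 2e-05, adjusted over the 10 pairs of the 5 genes 0.0002) and Spearman's rho was 0.569 (p = 4e-05, adjusted 0.0004) on the log2(FPKM + 1) scale. Without the 2 mice farthest from the median of *Cish*, r was 0.585. After the mean of each group was taken out, r was 0.706 (permutation p within groups = 0.00031, adjusted 0.0031), and the same mouse was the higher of its group for both genes in 17 of 24 groups. Within the 4 conditions r was 0.644 in WT control, 0.545 in WT KPC, 0.814 in FoxP1SkmKO control, and 0.322 in FoxP1SkmKO KPC mice (n = 12 each). In the WT control group at CT30, for example, replicate 2 exceeded replicate 1 for both *Cish* (2.71 against 0.886 FPKM) and *Socs2* (2.61 against 1.04 FPKM). In FoxP1SkmKO controls at that time it was again replicate 2 that was higher in *Cish* (6.98 against 0.974 FPKM) and *Socs2* (3.46 against 1.68 FPKM). Leaving out either library that stood apart gave r of 0.599 and 0.572. The summed markers of the cell types listed correlated with *Cish* or *Socs2* within groups at r between -0.292 and 0.157.

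**Figure D5:**
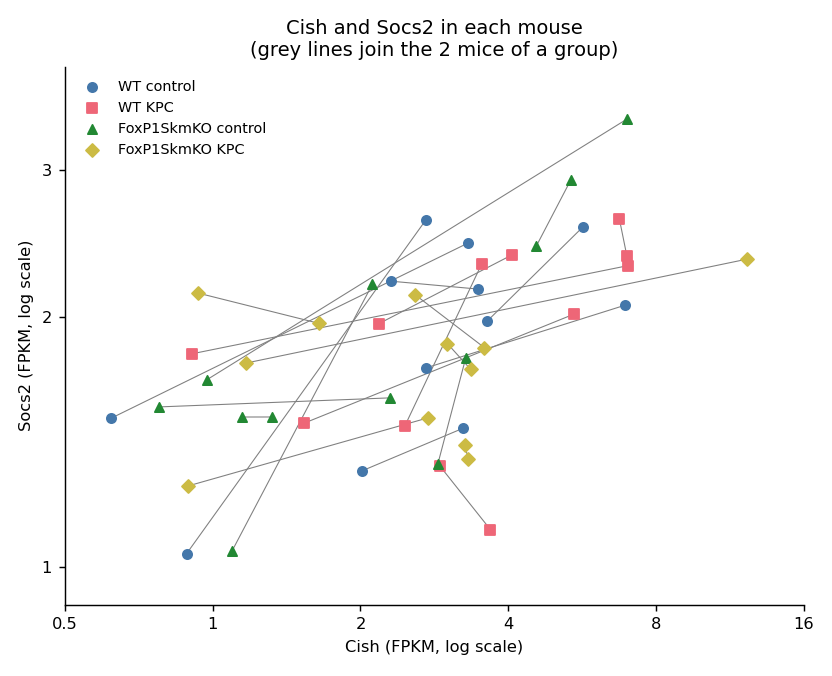
*Socs2* against *Cish* in FPKM on log axes, 1 point per mouse, by genotype and condition, with a grey line between the 2 mice of each group. Mice with more *Cish* had more *Socs2* (r = 0.590 over 48 mice), and FoxP1SkmKO KPC CT22 replicate 2 lies farthest to the right with 12.2 FPKM of *Cish*.

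The other pairs behaved differently. *Stat5a* correlated with *Stat5b* (r = 0.374, permutation p = 0.00845, adjusted 0.0169) and inversely with *Ghr* (r = -0.454, p = 0.00135, adjusted 0.00507) and *Socs2* (r = -0.450, p = 0.00152, adjusted 0.00507), and *Socs2* correlated with *Ghr* (r = 0.400, p = 0.00504, adjusted 0.0126). Spearman's rho for these pairs was 0.376, -0.470, -0.482, and 0.381, with adjusted p-values of 0.0181, 0.00283, 0.00283, and 0.0181. Without the 2 farthest mice r was 0.270, -0.414, -0.418, and 0.406. After removal of group means, and so of time of day, the r of these pairs was -0.106, -0.470, -0.0513, and 0.0609, and no pair other than *Cish* and *Socs2* had an adjusted p under 0.05. The level of neither STAT5 transcript followed that of *Cish* (r = -0.0991 for *Stat5a* and -0.0647 for *Stat5b*).

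Among the other 9003 protein-coding genes with a mean of at least 1 FPKM, likeness was measured as Pearson's r over the 48 mice on the log2(FPKM + 1) scale, as a description. Among the genes most like *Cish* were *Socs2* itself (r = 0.590) and *Txlna* (0.565). *Socs2* was most like *Fhip2a* (0.705) and *Dusp7* (0.673), and *Cish* ranked 8 there. *Stat5b* was most like *Pfkfb3* (0.805), *Cited2* (0.799), and *Maf* (0.780), and *Ghr* was most like *Clcn3* (0.889), *Xpr1* (0.854), and *Bpnt2* (0.834). *Stat5a* was most like *Gprc5c* (0.762), *Dgkz* (0.757), and *Cyb5r2* (0.743), and its paralog *Stat5b* ranked only 661. All libraries share the sampling times, which these correlations include.

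The rest of the pathway was covered by 68 listed genes, of which 61 were tested. With tumors 5 of 61 rose and 2 fell in WT mice (1.79% of all genes were called) and 2 rose and 0 fell in FoxP1SkmKO mice (0.428%). The difference between genotypes was called by edgeR for 0 of 61 (0.0% of all genes), with 4 at an unadjusted p under 0.05 (6.52% of all genes). The genotype effect was called for 5 genes in control mice (3.44% of all genes) and 1 in KPC mice (0.32%), each of them higher in FoxP1SkmKO mice. A shared 24 h rhythm was called for 32 of 61 genes, against 34.9% of all genes.

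Of the 12 kinases and adaptors, JAK2 is the kinase of the growth hormone receptor. *Jak2* did not pass the test for the tumor in WT mice (log2 difference 0.08 ± 0.05, edgeR adjusted p = 0.482), and had a shared rhythm with a peak at CT36.4 and an amplitude of 0.25 on the log2 scale (adjusted p = 4.99e-09). *Jak3*, the kinase of cytokine receptors with the common gamma chain, rose with tumors by a log2 difference of 0.69 ± 0.10 in WT (adjusted p = 0.000158) and 0.52 ± 0.10 in FoxP1SkmKO mice (0.00757). No other gene of this list was called for tumor or genotype, and 7 of 12 were rhythmic, against 34.9% of all genes.

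Of the 4 other STATs tested, *Stat3*, the main STAT of interleukin 6 signaling, rose in WT (log2 difference 0.30 ± 0.05, edgeR adjusted p = 0.00169) and in FoxP1SkmKO mice (0.22 ± 0.05, adjusted p = 0.0435). *Stat2*, which acts in interferon signaling, rose in WT mice (0.39 ± 0.09, adjusted p = 0.0257). None of the 4 had a called rhythm, against 34.9% of all genes. *Stat3* overlaps *Stat5a* on the opposite strand, and the part of reads from the overlap in these values was not tested. *Stat5a* had a log2 difference of 0.05 ± 0.08 in the WT contrast.

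The 16 negative regulators included *Socs3*, an inhibitor induced by STAT3. It was at a mean of 1.31 FPKM and rose in WT mice with tumors (log2 difference 0.81 ± 0.19, edgeR adjusted p = 0.0227). Its log2 difference was 0.62 ± 0.19 in FoxP1SkmKO mice (adjusted p = 0.111), and the difference between genotypes was -0.19 ± 0.26 (adjusted p = 0.935). *Dusp4*, a phosphatase of MAP kinases, was higher in FoxP1SkmKO than in WT control mice (1.01 ± 0.21, adjusted p = 0.00512). A shared rhythm was called for 6 of 16 (34.9% of all genes), *Cbl*, *Ptpn1*, *Socs4*, and *Socs5* among them.

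Among 14 tested response genes of growth hormone and STAT5, *Igf1* was low in muscle, with a mean of 0.448 FPKM. Its log2 difference with tumors was -0.40 ± 0.12 in WT (edgeR adjusted p = 0.0911) and -0.34 ± 0.13 in FoxP1SkmKO mice (adjusted p = 0.238), and it had a shared rhythm with a peak at CT20.2 (adjusted p = 0.00770). *Pim3*, a survival kinase, rose (0.30 ± 0.07, adjusted p = 0.0311) and *Ccnd1*, which encodes cyclin D1, fell (-0.66 ± 0.15, adjusted p = 0.0207) with tumors in WT mice. In control mice 4 genes of the list were higher in FoxP1SkmKO than in WT muscle. They were *Fos* (1.21 ± 0.22, adjusted p = 0.00128), *Cdkn1a* (0.79 ± 0.20, 0.0219), *Pim1* (0.49 ± 0.09, 0.00128), and *Id1* (0.48 ± 0.13, 0.0265), of which *Pim1* was also higher in KPC mice (0.47 ± 0.09, 0.00574). *Bcl6*, a repressor that competes with STAT5 for its motif, was not called for tumor or genotype and had a shared rhythm with a peak at CT18.6. A rhythm was called for 10 of the 14 genes, against 34.9% of all genes.

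In the IGF axis, *Igfbp6*, which encodes an IGF-binding protein, fell with tumors in WT mice (log2 difference -0.51 ± 0.11, edgeR adjusted p = 0.0114). A rhythm was called for 6 of 9 genes, against 34.9% of all genes. *Igf1r*, the receptor of IGF1, had its peak at CT33.6, the same fitted time as *Ghr*. Of 6 tested receptors of other hormones and cytokines that act through STAT5, none was called for tumor or genotype. The 3 with a rhythm (34.9% of all genes), *Csf2ra*, *Il2rb*, and *Csf3r*, are receptors of blood cells with a mean under 1 FPKM. All 6 macrophage markers had a called rhythm (34.9% of all genes), with peaks between CT20.1 and CT21.5 for the 4 with the lowest p. The part of such cells in these receptors was not tested.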

How the data were processed

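The authors deposited raw read counts per gene in 12 tables of 4 libraries each and FPKM of all 48 libraries, 1 mouse per library. Reads were aligned to mm39. The study's methods name STAR and HTSeq, while the submitters' processing notes name HISAT2 2.0.5 and DESeq2 1.20.0, and which of them made the deposited counts could not be settled. The authors' fold changes, p-values, and normalized counts were not used.

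In edgeR 4.0.16 (R 4.3.3), genes were kept by filterByExpr, libraries were scaled by TMM, and the 48 libraries entered 1 quasi-likelihood fit in which each of the 24 groups had its own mean. The fit estimated 8.611 prior degrees of freedom. Contrasts averaged the 6 circadian times with equal weight. The shared rhythm had 2 sinusoid terms of 24 h and an intercept for each genotype and condition. Rhythm within a genotype and condition was fitted on FPKM in Python 3.11.15 (numpy 2.4.6, scipy 1.17.1, pandas 2.3.3) with an F test. Fits and tests were tested on simulated data. Correlations used log2(FPKM + 1) and 100000 permutations. Alternatives used limma 3.58.1, DESeq2 1.42.0, other scalings and filters, the replicate number as a term, and fits without single mice or groups. To leave out a circadian time, the fit on all 48 libraries was kept and the contrast was averaged over the remaining times.

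The 5 genes, the lists, and the rule for named genes were chosen with earlier results of these data known. Named were the 5 genes, *Foxp1*, *Jak2*, *Stat3*, *Socs3*, *Igf1*, *Bcl6*, and up to 4 called genes of each list, ranked by fold change or, for rhythm, by p. The lists covered receptors, kinases and adaptors, other STATs, negative regulators, response genes, the IGF axis, and markers of muscle fibers, macrophages, T cells, neutrophils, erythroid cells, endothelium, fibroblasts, adipocytes, liver, and pancreas with epithelium. Some of the genes this rule names are not reported here.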

Additional observations from a re-analysis of the deposited data

Results flagged for a closer look

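For the 5 genes, 4 results differed between groups by a test of the difference itself at an unadjusted p under 0.05, and none passed adjustment over all genes. The tumor effect on *Socs2* at CT22 was higher in FoxP1SkmKO than in WT mice by 1.09 ± 0.44 on the log2 scale (SE), with an unadjusted p of 0.0191 and an adjusted p of 0.874 in edgeR's fit of all 48 libraries. At CT30 it was lower in FoxP1SkmKO mice, with a log2 difference of -0.95 ± 0.44, an unadjusted p of 0.0403, and an adjusted p of 0.970. Each of these differences compares 4 groups of 2 mice. The share of all genes with an unadjusted p under 0.05 for this difference was 5.27% at CT22 and 4.96% at CT30. The share called at an adjusted p under 0.05 was 0.0064% at CT22 and 0.0% at CT30. The rhythm of *Stat5a* differed between WT KPC and WT control mice, with an unadjusted p of 0.0189 (adjusted 0.752), and that of *Socs2* between FoxP1SkmKO KPC and FoxP1SkmKO control mice, with 0.00769 (adjusted 0.757), on 12 mice in each. Of all genes 5.07% and 5.09% had an unadjusted p under 0.05 in these rhythm comparisons. At CT30 the FoxP1SkmKO control mice had 1.68 and 3.46 FPKM of *Socs2*. All FoxP1SkmKO mice at CT30 enter both the CT30 difference and the rhythm difference of *Socs2*. The part of the mouse with 3.46 FPKM in these results was not tested. No group had enough mice, or few enough, for a test of single outlying mice.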

How the results depend on the processing

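The 5 genes stayed uncalled for tumor and genotype in every averaged contrast under DESeq2 size factors, DESeq2, limma, the replicate number as a term, and each time or mouse left out. The exception was *Cish* without a filter on low counts. The spread of *Cish* between mice set the width of its intervals, and counting error was small beside it. A shared rhythm was called for *Stat5a*, *Stat5b*, and *Ghr* in all 11 alternatives and for *Socs2* in 8. The amplitude of *Socs2* was 0.21 without both WT control mice at CT26, 0.24 without WT control mice, and 0.19 without WT KPC mice, each no longer called (adjusted p over 0.05), and that of *Cish* was 0.13 and called without a filter. The cause was not tested.

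Counts of all genes moved more. For the tumor effect in WT mice (280 genes) they were 794 without a filter, 166 and 173 with limma on log2(FPKM + 1) and log2(FPKM + 0.1), and 138, 118, and 157 without CT26, CT30, or CT34. In FoxP1SkmKO mice (67) they were 527 without a filter, 22 and 20 with limma, 161 with DESeq2, and 3, 130, 15, 107, and 21 without CT18, CT22, CT30, CT34, or CT38. The difference (0) had 104 without a filter. The genotype effect had 933 without a filter and 323 and 268 without CT18 or CT38 in control mice (538), and in KPC mice (50) it had 470 without a filter, 28 and 28 with limma, 116 with DESeq2, and 20, 138, 0, 27, and 21 without CT18, CT22, CT30, CT34, or CT38. With 1 mouse left out these counts ran from 72 to 417, 17 to 236, 0 to 4, 316 to 768, and 17 to 203. At CT26 in WT mice edgeR on 4 libraries called 345 genes (1121) and the fit without WT control CT26 replicate 1, added after seeing the data, called 89, and in single times it called 1 of the 60 tests of the 5 genes (0), while the fit without a filter called 10. Rhythmic genes at an adjusted p under 0.05 were 150, 130, 119, and 33 in WT control, WT KPC, FoxP1SkmKO control, and FoxP1SkmKO KPC mice (1339, 1155, 1169, and 747 at p under 0.01), and edgeR on counts gave 2236 in WT control and 1340 in FoxP1SkmKO KPC mice. The difference in rhythm between control genotypes was at p under 0.05 for 809 genes on counts (1276 on FPKM).

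Signs turned in the following differences, none of which was called with the filter on low counts, on the log2 scale. In the tumor effect in WT mice, *Stat5a* (0.05) was -0.0083 without CT22, and *Socs2* (-0.01) was 0.0050 and 0.0092 with limma and 0.13 without CT22. In FoxP1SkmKO mice, *Ghr* (0.0058) was -0.0028 and -0.0148 without CT18 or CT38, *Cish* (0.24) was -0.14 without CT22, *Stat5a* (-0.05) was 0.0083 without CT38, and *Socs2* (-0.09) was 0.0694 and 0.0081 without CT30 or CT34. In the difference, *Stat5b* (-0.0059) was 0.0213, 0.0244, and 0.0012 without CT22, CT26, or CT34, *Ghr* (-0.03) was 0.0020 without CT26, *Cish* (-0.14) was 0.21 without CT30, and *Socs2* (-0.08) was 0.0101, 0.0957, and 0.0112 without CT26, CT30, or CT34. In the genotype effect in control mice, *Stat5b* (-0.0027) was 0.00032 with DESeq2 size factors, 2.4e-06 with limma on log2(FPKM + 0.1), 0.00026 with DESeq2, and 0.00012, 0.0021, 0.0261, and 0.0054 without CT18, CT22, CT30, or CT34, *Cish* (-0.29) was 0.0399 without CT18, and *Socs2* (-0.03) was 0.0248, 0.0255, and 0.0460 without CT18, CT22, or CT38. In KPC mice, *Stat5b* (-0.0086) was 0.0234 and 0.0066 without CT22 or CT34, and *Stat5a* (0.00020) was -0.0015 with the replicate block and -0.0327, -0.0439, and -0.0154 without CT26, CT30, or CT34. With 1 mouse left out, the tumor effect in WT mice ran from -0.0985 to 0.123 for *Socs2*. In FoxP1SkmKO mice it ran from -0.0324 to 0.0439 for *Ghr*, -0.107 to 0.0208 for *Stat5a*, -0.164 to 0.0111 for *Socs2*, and -0.177 to 0.575 for *Cish*. The difference ran from -0.0307 to 0.0162 for *Stat5b*, -0.0714 to 0.0060 for *Ghr*, -0.556 to 0.218 for *Cish*, and -0.212 to 0.0247 for *Socs2*. The genotype effect ran from -0.0248 to 0.0191 for *Stat5b* and -0.137 to 0.0996 for *Socs2* in control mice, and from -0.0311 to 0.0126 for *Stat5b* and -0.0354 to 0.0369 for *Stat5a* in KPC mice.

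The replicate numbers mark no shared animal, and mice with the same number did not deviate together over 276 pairs of groups (correlation of deviations -0.413 to 0.465, median -0.0172). The replicate block left every call of the 5 genes as it was, with 5386 genes called for the shared rhythm (5455) and 1103 for the tumor effect in WT mice at CT26 (1121).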
